A study of Homo sapiens with 6 samples.

Results

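The genes described here are 60 genes of mitosis and of the passage from G2 into mitosis (G2/M), taken from a list of symbols and matched to the gene identifiers of the deposited count table. All 60 had a row there, out of 12703 genes in all. The list was chosen with earlier results of these data known. The members cover the cyclins and kinases that start mitosis, the kinetochore and its checkpoint, the anaphase machinery, the kinesin motors, the proteins of cytokinesis, the condensin complex and the transcription factors FOXM1 and MYBL2. The study asked which gene expression pathways change when GCNT1, a glycosyltransferase that builds core 2 O-glycans, is overexpressed in PC3, an established human prostate cancer cell line. Each group held 3 stable lines with 1 RNA library per line: the Lenti-ORF control lines had received a control lentivirus, and the GCNT1 overexpression lines a lentivirus carrying GCNT1. All 6 lines carry a lentiviral insertion, and the sources used here do not give the promoter of the construct or say whether a line came from 1 clone.

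As background, a cell enters mitosis when CDK1 bound to a B-type cyclin is switched on by phosphatases of the CDC25 family, with PLK1 and the Aurora kinases acting beside it. The spindle assembly checkpoint holds the anaphase-promoting complex (APC/C) back until every kinetochore is attached to microtubules, after which CDC20 lets the complex destroy securin and cyclin B. Most of these genes are transcribed late in the cycle. In dividing cells their promoters are bound by the MuvB core together with MYBL2 and FOXM1, through a cell cycle homology region (CHR), and by NF-Y through CCAAT boxes. Their summed mRNA level is widely used as a measure of proliferation in tumours, including prostate tumours. For PC3 cells with GCNT1 overexpression the paper reports higher proliferation in culture and more growth of xenografts. Proliferation was not measured in the libraries described here.

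The libraries held between 11392213 and 13825704 counts, and the members between 179 and 6738 counts in each library, so no member was near the floor of 3 counts. Levels in CPM (counts scaled to an equal library size) are corrected here with TMM factors, which centre the bulk of the genes, and the median log2 fold change of all 12703 genes was 0.00 on this scale. GCNT1 itself had 9, 13 and 8 counts in the control libraries and 13, 16 and 35 in the overexpressing ones (log2 fold change 0.98 ± 0.37, adjusted p = 0.0362, where ± gives the standard error here and below). That call held in 3 of 6 fits with a library left out, and the log2 fold change was 0.49 without GCNT1 overexpression replicate 3. The sources used here do not say which part of the GCNT1 transcript the construct carries, so how much of its RNA could be counted on the gene is not known. Of the PC3 markers given here (some are not reported), KRT8, KRT18, CD44 and VIM were well counted in each library (2582 counts or more). EPCAM had 51 to 86 counts, and KLK3, PTPRC and CD3E had no row among the genes analysed. The collagen genes COL1A1 (99 to 196 counts) and COL3A1 (399 to 2067 counts), which fibroblasts express, were lower with overexpression, and their part in the results below was not tested.

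Transcripts of most of the 60 members were lower in GCNT1 overexpressing cells. Of the 60 members, 52 fell at an adjusted p of 0.05 (quasi-likelihood test of edgeR, Benjamini-Hochberg over all genes), 1 rose and 7 did not pass. Among all genes tested, 57.6% passed, 29.3% falling and 28.3% rising. With the study's second threshold added, an absolute log2 fold change of 0.58, 35 members were lower and 0 were higher, against 11.1% lower and 8.28% higher among all genes. A test against that fold itself (glmTreat) called 25 of the 35, and left out CDC25C, CDCA8, CEP55, KIF14, KIF18A, MKI67, NEK2, NUF2, SGO2 and TTK. The 3 overexpressing libraries lay below the 3 control libraries in 53 members, above them in 1 and overlapped in 6, where 31.6% of all genes were separated downwards and 30.9% upwards. The median log2 fold change of the members was -0.69, a ratio of 0.621, and the values ran from -1.64 for CENPA to 0.17 for FOXM1. In these bulk samples, fewer cells in G2 and mitosis and less of these RNAs per cell cannot be told apart.

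**Figure D1:**
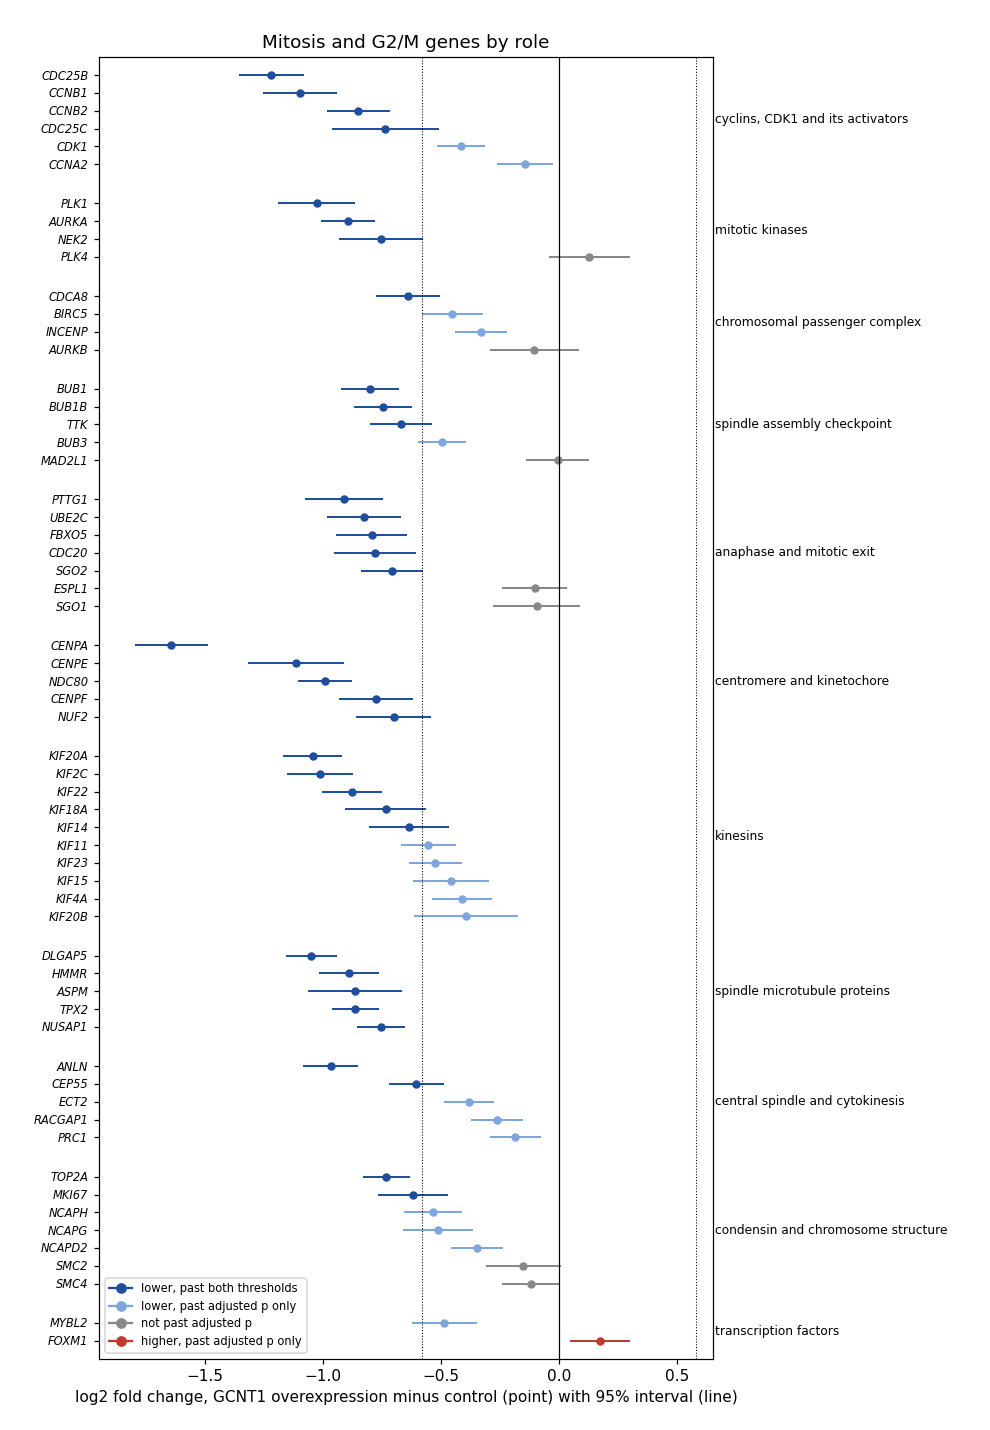
Log2 fold change of each of the 60 members (x axis, GCNT1 overexpression minus control; points, with lines for the 95% interval), grouped by role. Dotted lines mark a log2 fold change of 0.58 in either direction. 35 members lie left of the lower dotted line and pass both thresholds, and FOXM1, right of 0, is the 1 member that passed the adjusted p in the other direction.

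Summed over the members, the level was 10149.6, 10429 and 10054 CPM in control replicates 1 to 3 and 6692, 6549 and 6780 CPM in overexpressing replicates 1 to 3. The group means were 10211 ± 195 CPM and 6674 ± 117 CPM (SD, n = 3 each). The members took between 0.980% and 1.02% of the counts in controls and between 0.671% and 0.692% with overexpression. The 3 libraries of a group lay close together, and the gap between the groups was many times the spread inside them. Against the control mean, the median member had a log2 difference of -0.66, -0.66 and -0.61 in overexpressing replicates 1 to 3.

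**Figure D2:**
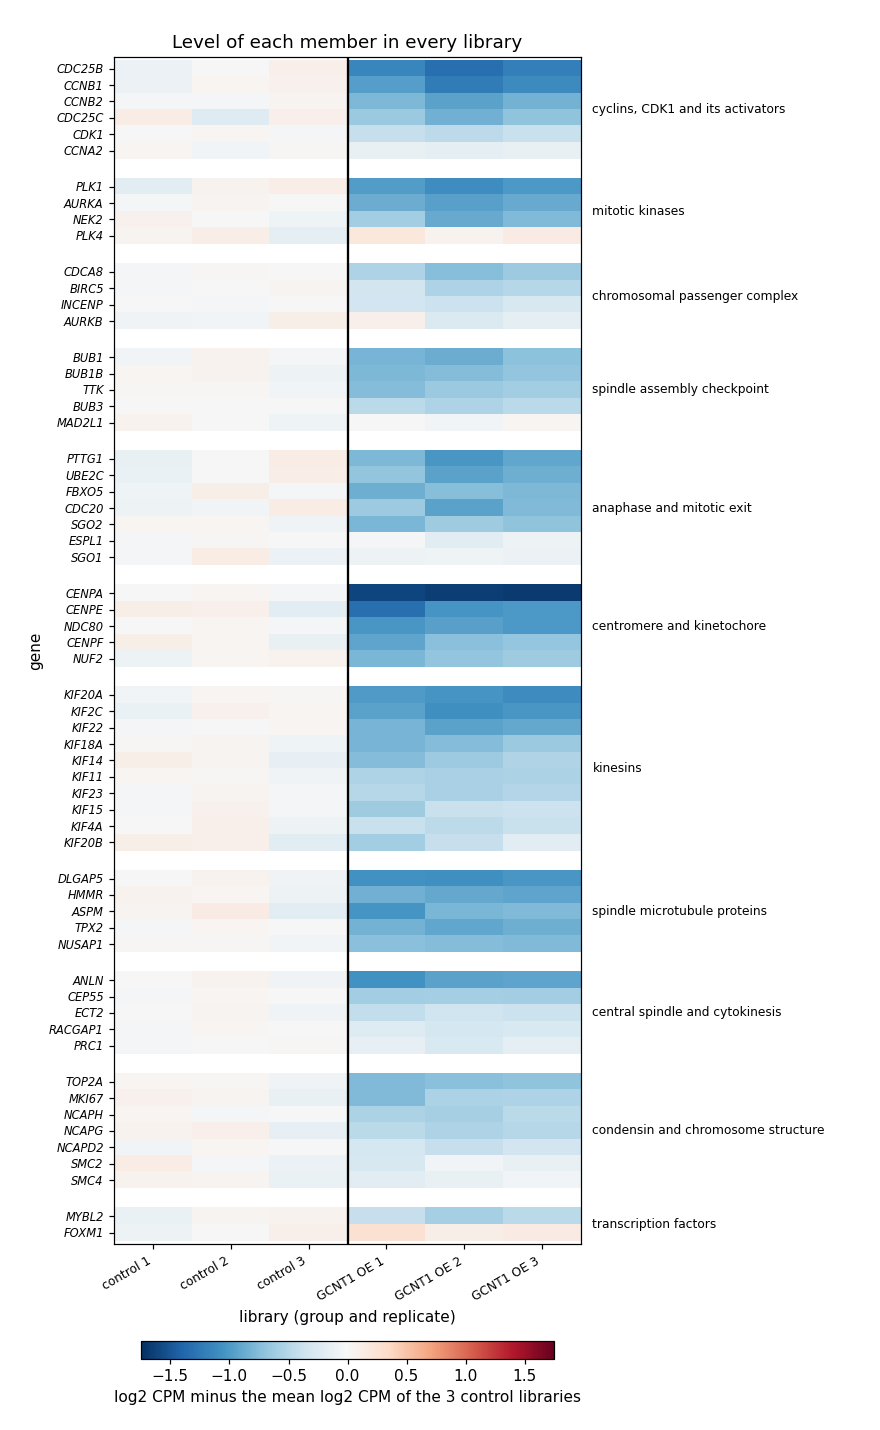
Level of each of the 60 members in each of the 6 libraries, as log2 CPM minus the mean log2 CPM of the 3 controls (blue lower, red higher), with the black line between the groups. The 3 overexpressing columns are blue in most rows and darkest in CENPA, while PLK4 and FOXM1 are pale red.

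Levels varied among the members. Per kilobase of exon, the highest control levels were those of UBE2C (168 CPM per kb), TPX2 (137), BIRC5 (115) and DLGAP5 (90.05), and the lowest were those of SGO1 (5.69), ASPM (5.85) and ESPL1 (5.86). With overexpression UBE2C stood at 94.4 CPM per kb and SGO1 at 5.32. Across the 60 members the log2 fold change had a Pearson correlation of -0.27 with the control level per kilobase on the log2 scale, given as a description over genes that share the 6 libraries.

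A promoter feature that the list did not use was common in the members. RefSeq promoter windows of GRCh38.p14, 250 bases before to 50 bases after a transcript start, were found for 52 members (69 windows). The CHR core, searched as TTTGAA or TTCGAA on both strands, was in 45 of these 69 windows (65.2%), against 11.9% of the 14985 windows of all genes tested and 16.4% of all 35116 windows. A CCAAT box (CCAAT on both strands) was in 68.1% of the members' windows and in 34.7% of those of all genes tested. A CHR core together with 2 or more CCAAT boxes was in 27.5% of them and in 1.62% of the windows of all genes tested. In the windows of 102 other mitotic genes from a companion list, a CHR core was in 32.4% and a CHR core with 2 or more CCAAT boxes in 12.9%. The windows of 42 DNA replication genes held a CHR core in 3.70% of cases. An E2F motif (GCGGGAA on both strands) was in 8.70% of the members' windows, close to the 9.60% of all genes tested, in 23.02% of those of the other mitotic genes and in 37.0% of those of the replication genes. None of the motifs searched contains the letters of another, and a match is a description of the letters and not a binding site.

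Shown are the 150 bases before the start of 3 members with a CHR core, among them CENPA with the largest fall, and of CCNB1. In CCNB1 these 150 bases had no match to the CHR letters. CHR cores and CCAAT boxes on either strand are in capitals, all 4 sequences are from the plus strand and the 5′ end is on the left. The CHR core begins 18 bases before the start in CENPA (chromosome 2) and 29 bases before it in CCNB2 (chromosome 15) and PLK1 (chromosome 16), while CCNB1 (chromosome 5) shows 2 CCAAT boxes, 87 and 55 bases before the start.
CENPA (chr2:26785906-26786055): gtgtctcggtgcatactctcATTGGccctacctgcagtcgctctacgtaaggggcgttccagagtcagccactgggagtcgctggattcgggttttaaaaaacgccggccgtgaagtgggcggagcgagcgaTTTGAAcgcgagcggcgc
CCNB2 (chr15:59104996-59105145): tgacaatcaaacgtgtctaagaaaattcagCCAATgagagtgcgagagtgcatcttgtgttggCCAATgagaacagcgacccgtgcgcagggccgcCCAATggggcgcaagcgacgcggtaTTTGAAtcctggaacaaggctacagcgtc
PLK1 (chr16:23678739-23678888): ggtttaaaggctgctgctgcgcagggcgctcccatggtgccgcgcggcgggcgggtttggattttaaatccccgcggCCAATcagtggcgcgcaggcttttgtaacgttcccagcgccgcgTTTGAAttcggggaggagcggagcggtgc
CCNB1 (chr5:69167000-69167149): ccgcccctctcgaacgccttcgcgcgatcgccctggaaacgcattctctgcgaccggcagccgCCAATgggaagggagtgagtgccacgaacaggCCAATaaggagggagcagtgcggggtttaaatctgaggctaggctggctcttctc

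Inside the list, members with and without a CHR core had medians of like size, a difference that was not tested. The 41 members with a CHR core in a window had a median of -0.64 (log2 fold change), and 24 of them passed both thresholds downwards. The 11 members with windows but no CHR core had a median of -0.76, and 7 passed. In the 19 members with a CHR core and at least 2 CCAAT boxes in the same window the median was also -0.76, with values from -1.64 to -0.33, and 14 passed.

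The cyclins, CDK1 and its activators all fell, 4 of 6 past both thresholds. CCNB1, the cyclin that carries CDK1 into mitosis, was at 168, 185 and 190.2 CPM in controls and 92.97, 77.4 and 83.9 CPM with overexpression (log2 fold change -1.10 ± 0.07, adjusted p = 3.11e-08). The groups did not overlap, and the level was 2.14-fold lower with overexpression. CCNB2, the other main B-type cyclin of CDK1, was at 80.7, 81.04 and 85.01 CPM in controls and 47.7, 42.95 and 46.2 CPM with overexpression, with a log2 fold change of -0.85 ± 0.06, and its count is less certain because the pseudogene CCNB2P1 is 91.7% identical to it. CDC25B, a phosphatase that starts CDK1 activation at the centrosome, had the second largest fall of the list, at 294, 319 and 338 CPM in controls and 144, 127 and 138 CPM with overexpression (log2 fold change -1.22 ± 0.06, adjusted p = 3.27e-09). CDC25C, which acts on nuclear CDK1, was at 29.5, 22.97 and 28.7 CPM in controls and 17.2, 15.00 and 16.5 CPM with overexpression (-0.74 on the log2 scale).

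CDK1 itself, the kinase these cyclins bind, fell short of the fold threshold. It stood at 303, 307 and 294 CPM in controls and 228, 219.8 and 229 CPM with overexpression (log2 fold change -0.42 ± 0.04, adjusted p = 4.21e-06), and the 95% interval of the log2 fold change, -0.51 to -0.32, did not reach the fold threshold. CCNA2, cyclin A2, which acts from S phase on, had the smallest fall of the group (log2 fold change -0.15 ± 0.05, adjusted p = 0.0307). That call was lost in 4 of the 6 fits with a library left out, those without control replicate 1, control replicate 3, GCNT1 overexpression replicate 2 or GCNT1 overexpression replicate 3. The adjusted p was at most 0.114 in these 4 fits, and 0.170 with library size in place of TMM.

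Of the mitotic kinases, PLK1, AURKA and NEK2 fell past both thresholds. PLK1, which acts on CDK1 activation, centrosome maturation and the spindle, was at 159, 189.5 and 196 CPM in controls and 91.5, 85.5 and 90.1 CPM with overexpression (log2 fold change -1.03 ± 0.07, adjusted p = 8.62e-08), a 2.04-fold lower level. AURKA, the Aurora kinase of the spindle poles, was at 183, 194 and 186 CPM in controls and 103, 97.3 and 102 CPM with overexpression (log2 fold change -0.90 ± 0.05, adjusted p = 8.85e-09). NEK2, a kinase that separates the centrosomes, was at 48.2, 45.8 and 43.2 CPM in controls and 30.1, 24.7 and 26.8 CPM with overexpression (-0.76 on the log2 scale), and its count is uncertain because the annotation holds near-identical copies of it, among them NEK2P1, NEK2P2 and NEK2P4. PLK4, the kinase of centriole duplication, was the exception in this group. It stood at 40.2, 42.2 and 34.8 CPM in controls and 44.3, 40.8 and 43.1 CPM with overexpression, the groups overlapped, and the 95% interval of its log2 fold change was -0.04 to 0.29 (adjusted p = 0.174).

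The chromosomal passenger complex, which corrects wrong attachments and guides cytokinesis, fell in 3 of its 4 members. CDCA8 (borealin), one of its targeting subunits, was at 101, 105 and 104 CPM in controls and 70.8, 61.4 and 66.6 CPM with overexpression (log2 fold change -0.64 ± 0.06, adjusted p = 1.34e-06). BIRC5 (survivin) and the scaffold INCENP had log2 fold changes (± standard error) of -0.45 ± 0.06 and -0.33 ± 0.05, both past the adjusted p and short of the fold threshold. AURKB, the kinase of the complex, stood at 48.6, 48.7 and 54.4 CPM in controls and 53.7, 42.3 and 45.3 CPM with overexpression (log2 fold change -0.11, 95% interval -0.29 to 0.08, adjusted p = 0.303), with overlapping groups. Overexpressing replicate 1 stood among the controls for AURKB, and without it the log2 fold change was -0.21 (adjusted p = 0.0209). Over the alternatives for AURKB the adjusted p ran from 0.0209 to 1.

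Of the 5 spindle assembly checkpoint genes, 4 fell and MAD2L1 did not pass. BUB1, the checkpoint kinase of the kinetochore, was at 212, 228 and 216 CPM in controls and 124, 119 and 133 CPM with overexpression (log2 fold change -0.80 ± 0.05, adjusted p = 5.58e-08). BUB1B (BubR1), a part of the mitotic checkpoint complex, was at 187, 191 and 172 CPM in controls and 106, 108 and 113 CPM with overexpression (log2 fold change -0.75 ± 0.05, adjusted p = 1.17e-07). TTK (MPS1), the kinase that starts checkpoint signalling, was at 97.3, 97.3 and 92.3 CPM in controls and 56.3, 60.8 and 63.01 CPM with overexpression (-0.67 on the log2 scale). The log2 fold change of BUB3 was -0.50 ± 0.04, short of the fold threshold. MAD2L1 (MAD2), which is bound into the inhibitor of CDC20, stood at 56.02, 53.6 and 51.01 CPM in controls and 53.1, 51.8 and 54.8 CPM with overexpression, and its log2 fold change of -0.01 had a 95% interval of -0.14 to 0.12 (adjusted p = 0.921). Its direction turned with library size in place of TMM, where it was 0.05.

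Among the genes of anaphase and mitotic exit, 5 of 7 fell, all past both thresholds. CDC20, the activator of the APC/C in mitosis, was at 124, 128 and 144 CPM in controls and 84.9, 68.6 and 77.1 CPM with overexpression (log2 fold change -0.78 ± 0.08, adjusted p = 2.34e-06). UBE2C, the ubiquitin-conjugating enzyme of the APC/C, was at 199, 215 and 233 CPM in controls and 133, 112 and 119 CPM with overexpression (log2 fold change -0.83 ± 0.07, adjusted p = 5.13e-07), and its count is less certain because the pseudogene UBE2CP3 is 90.4% identical to it. PTTG1 (securin), the inhibitor of separase, was at 124, 136 and 148 CPM in controls and 78.4, 66.7 and 71.9 CPM with overexpression (log2 fold change -0.91 ± 0.08, adjusted p = 3.72e-07). For these partners and substrates of the APC/C every overexpressing library lay below every control library. FBXO5 (EMI1), which inhibits the APC/C before mitosis, was at 57.5, 65.2 and 59.04 CPM in controls and 33.5, 36.1 and 35.1 CPM with overexpression (-0.79 on the log2 scale). SGO2, a protector of centromeric cohesin, was at 119, 119.7 and 111 CPM in controls and 67.1, 75.3 and 71.3 CPM with overexpression (-0.71 on the log2 scale). ESPL1 (separase, the protease that cuts cohesin) and SGO1, the other shugoshin, did not pass. ESPL1 stood at 50.9, 53.01 and 52.4 CPM in controls and 50.8, 45.6 and 49.05 CPM with overexpression, without overlap between the groups (log2 fold change -0.10, 95% interval -0.24 to 0.03, adjusted p = 0.165). SGO1 stood at 20.7, 23.3 and 19.8 CPM in controls and 19.96, 20.1 and 19.7 CPM with overexpression, with overlapping groups (log2 fold change -0.10, 95% interval -0.28 to 0.08, adjusted p = 0.342).

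Every member of the centromere and kinetochore group fell past both thresholds. CENPA, the histone H3 variant that marks the centromere, had the largest fall of the list. It was at 46.9, 48.2 and 46.2 CPM in controls and 15.5, 15.00 and 14.7 CPM with overexpression (log2 fold change -1.64 ± 0.07, adjusted p = 5.76e-10), a 3.13-fold lower level with a narrow spread in both groups. In GENCODE 44 the span of CENPA overlaps that of its neighbour SLC35F6 on the same strand. CENPE, a kinetochore motor that aligns chromosomes, was at 150.4, 149 and 122 CPM in controls and 55.8, 68.1 and 69.8 CPM with overexpression (log2 fold change -1.12 ± 0.09, adjusted p = 3.67e-07). Overexpressing replicate 1 was the lowest library for CENPE and control replicate 3 the lowest of the controls. CENPF, a large kinetochore protein, was at 267, 254 and 228 CPM in controls and 131, 149.7 and 156 CPM with overexpression (-0.78 on the log2 scale). NDC80, the microtubule-binding subunit of the complex named after it, was at 148, 149.9 and 143 CPM in controls and 72.7, 75.8 and 72.9 CPM with overexpression (-0.99 on the log2 scale). Its partner NUF2 was at 47.3, 51.6 and 52.7 CPM in controls and 28.9, 31.3 and 32.7 CPM with overexpression (-0.70 on the log2 scale). In all 5 genes the groups did not overlap.

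All 10 kinesins fell at the adjusted p, 5 of them past both thresholds. KIF20A, a motor of the central spindle, was at 109.97, 116 and 115 CPM in controls and 56.9, 55.5 and 52.8 CPM with overexpression (log2 fold change -1.04 ± 0.06, adjusted p = 5.16e-09), and it overlaps BRD8 and CDC23 on the opposite strand. KIF2C (MCAK), which takes apart microtubule ends at centromeres, was at 127, 145 and 141 CPM in controls and 71.8, 65.2 and 67.8 CPM with overexpression (log2 fold change -1.01 ± 0.06, adjusted p = 2.40e-08). KIF22, a chromosome-arm motor, was at 88.4, 91.2 and 93.05 CPM in controls and 51.8, 47.7 and 48.98 CPM with overexpression (-0.88 on the log2 scale). KIF18A, which limits the swing of chromosomes at the spindle centre, was at 30.99, 31.7 and 29.2 CPM in controls and 17.4, 18.1 and 19.6 CPM with overexpression (-0.74 on the log2 scale). KIF14, a cytokinesis motor, was at 93.3, 89.5 and 78.4 CPM in controls and 51.2, 56.1 and 60.5 CPM with overexpression (-0.64 on the log2 scale), and it lost the fold threshold without control replicate 1 or GCNT1 overexpression replicate 1. The other kinesins, KIF11, KIF23, KIF15, KIF4A and KIF20B, had log2 fold changes from -0.56 for KIF11 (Eg5, which pushes the spindle poles apart) to -0.40 for KIF20B. KIF4A has a near-identical copy, KIF4B, 95.2% identical, so its count is uncertain.

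The spindle microtubule proteins fell as a whole group, 5 of 5 past both thresholds. DLGAP5 (HURP), a stabiliser of kinetochore fibres, was at 324, 337 and 311 CPM in controls and 155, 154 and 159.9 CPM with overexpression (log2 fold change -1.05 ± 0.05, adjusted p = 1.20e-09), a 2.07-fold lower level. HMMR, a spindle assembly factor, was at 141, 139 and 127 CPM in controls and 75.6, 72.9 and 71.4 CPM with overexpression (-0.89 on the log2 scale). ASPM, a spindle pole protein, was at 71.99, 77.1 and 61.6 CPM in controls and 34.1, 40.1 and 41.1 CPM with overexpression (-0.87 on the log2 scale). TPX2, the activator of AURKA on the spindle, was at 483, 506 and 494 CPM in controls and 279, 263 and 272 CPM with overexpression (log2 fold change -0.86 ± 0.04, adjusted p = 3.54e-09). NUSAP1, which bundles spindle microtubules, was at 329, 329.6 and 313 CPM in controls and 195, 191 and 189 CPM with overexpression (-0.76 on the log2 scale), and a readthrough transcript in the annotation holds its sequence.

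The central spindle and cytokinesis genes all fell, 2 of 5 past both thresholds. ANLN (anillin), the scaffold of the contractile ring, was at 402, 419 and 386 CPM in controls and 193, 210.2 and 213 CPM with overexpression (log2 fold change -0.97 ± 0.05, adjusted p = 5.41e-09). CEP55, which recruits the abscission machinery to the midbody, was at 105, 109.7 and 107 CPM in controls and 70.2, 70.9 and 69.95 CPM with overexpression (-0.61 on the log2 scale). ECT2, the exchange factor that activates RhoA at the cleavage plane, its partner RACGAP1 and the microtubule bundler PRC1 had smaller log2 fold changes (± standard error) of -0.38 ± 0.05, -0.26 ± 0.05 and -0.19 ± 0.05.

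In the group of condensin and chromosome structure 5 of 7 genes fell, 2 of them past both thresholds. TOP2A, the topoisomerase that untangles sister chromatids, was at 535, 533 and 504 CPM in controls and 307, 317 and 322 CPM with overexpression (log2 fold change -0.73 ± 0.04, adjusted p = 1.87e-08). MKI67, which encodes the proliferation marker Ki-67 on the surface of mitotic chromosomes, was at 481, 474 and 419 CPM in controls and 268, 312 and 313 CPM with overexpression (log2 fold change -0.62 ± 0.07, adjusted p = 4.75e-06), and its call was lost at the fold threshold without control replicate 1 or GCNT1 overexpression replicate 1. The condensin I subunits NCAPH, NCAPG and NCAPD2 had log2 fold changes (± standard error) of -0.53 ± 0.06, -0.51 ± 0.07 and -0.35 ± 0.05. SMC2 and SMC4, the ATPase core that both condensins share, did not pass (log2 fold change -0.15 ± 0.07, adjusted p = 0.0824 for SMC2 and log2 fold change -0.12 ± 0.06, adjusted p = 0.081 for SMC4), with 95% intervals of -0.31 to 0.00 and -0.24 to 0.00. Without control replicate 3 both passed, SMC2 at a log2 fold change of -0.21 (adjusted p = 0.0303) and SMC4 at -0.17 (adjusted p = 0.0130). SMC2 also passed without GCNT1 overexpression replicate 2 (adjusted p = 0.0424). Over their other alternatives the adjusted p was as high as 1.

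The transcription factors of the list, MYBL2 and FOXM1, went in opposite directions. MYBL2 (B-MYB), the subunit that turns the MuvB complex into an activator, was at 162, 181 and 183 CPM in controls and 132, 117 and 126 CPM with overexpression (log2 fold change -0.49 ± 0.06, adjusted p = 2.01e-05). FOXM1, which joins that complex in G2, was at 193, 205 and 218 CPM in controls and 246, 221 and 227 CPM with overexpression, the 3 overexpressing libraries lying above the controls (log2 fold change 0.17 ± 0.06, adjusted p = 0.0197). That rise lost its call without control replicate 1, without control replicate 2 and without GCNT1 overexpression replicate 1 (log2 fold changes 0.14, 0.17 and 0.13). The adjusted p of FOXM1 ran from 0.00218 to 1 over all alternatives. The genes ITFG2 and RHNO1 overlap FOXM1 on the opposite strand.

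Where a member lies in the genome went along with how far it fell. The median log2 fold change of the 50 nearest analysed genes ran from -0.52 around CENPA to 0.40 around SMC2. Across the 60 members it had a Pearson correlation of 0.79 and a Spearman correlation of 0.75 with the member's own log2 fold change (0.75 and 0.74 without CENPA), and 0.24 and 0.45 across 12643 placed genes. These are descriptions across genes, neighbours on a chromosome share their reference genes, and no p value is given. In 14 members the neighbours' median was above 0.2, and 0 of these 14 passed both thresholds, with a median log2 fold change of -0.15. They include 6 of the 7 members that did not pass the adjusted p (PLK4, MAD2L1, AURKB, ESPL1, SMC2 and SMC4), FOXM1, which rose, and CCNA2, the smallest fall among the cyclins. In the 5 members whose neighbours' median was below -0.2 (CENPA, FBXO5, KIF14, UBE2C and ASPM) all 5 passed, and among the other 41 members 30 did. AURKB (0.2006), ASPM (-0.2015) and UBE2C (-0.2039) lay close to these limits. Shares of all genes passing at each neighbour level are not given here, so these counts are not a result about the members alone.

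Relative to their neighbours, every one of the 60 members was lower, from -1.19 for CENPE to -0.04 for FOXM1, where 49.98% of all placed genes were. The median of this difference was -0.63, and 36 members had an adjusted p under the threshold and lay at least 0.58 below their neighbours, against 8.95% of all placed genes. CDCA8, FBXO5, KIF14 and TTK no longer reached the fold threshold on this scale, and ECT2, KIF23, NCAPD2, NCAPG and RACGAP1 reached it. CENPA stood at -1.13 relative to its neighbours and CENPE at -1.19, so that CENPE, not CENPA, was the lowest. The p values here are those between overexpression and control, and the neighbours' median entered no test.

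**Figure D3:**
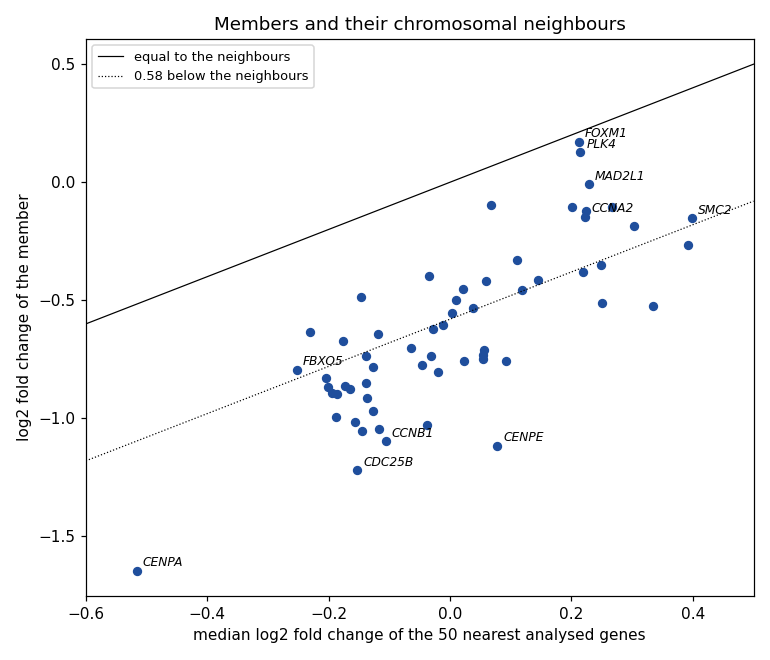
Log2 fold change of each of the 60 members (y axis) against the median log2 fold change of the 50 nearest analysed genes on its chromosome (x axis); the solid line marks equality and the dotted line 0.58 below it. All 60 points lie below the solid line, and members with raised neighbours, such as FOXM1, PLK4 and MAD2L1, sit highest.

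By chromosome, the 8 members on chromosome 1 and the 5 on chromosome 5 (CCNB1, CDC25C, PTTG1, KIF20A and HMMR) all passed both thresholds downwards, with median log2 fold changes of -0.77 and -0.91. The 4 members on chromosome 12 and the 4 on chromosome 3 included 0 that did, with medians of -0.18 and -0.25. The neighbours' medians ran from -0.23 to 0.09 on chromosome 1 and from -0.19 to -0.11 on chromosome 5. They ran from 0.21 to 0.39 on chromosome 12 and from 0.07 to 0.22 on chromosome 3. Shares of all genes passing on each chromosome are not given here, so these counts are not a result about the members alone. On chromosome 4 the neighbours' median was above 0 for all 5 members, and CENPE was the 1 member there past both thresholds.

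Other genes of mitosis, from a companion list, changed less uniformly. Of 117 genes listed, 115 were in the table, of which 43 fell (37.4%), 23 rose (20%) and 49 did not pass the adjusted p, beside 29.3% lower and 28.3% higher over all genes, with a median log2 fold change of -0.06. Past both thresholds 12 were lower (10.4%) and 3 higher, where 11.1% and 8.28% of all genes were. The 5 with the smallest p, with log2 fold changes ± standard error, were TRIP13, which remodels MAD2 (-1.12 ± 0.05), HJURP, the chaperone that loads CENPA (-1.17 ± 0.06), SPDL1, which brings dynein to kinetochores (-0.89 ± 0.06), GTSE1, a microtubule-tip protein of mitosis (-1.06 ± 0.07), and CCNF, cyclin F (-1.02 ± 0.07). The neighbours' median log2 fold change was -1.07 around TRIP13, -0.62 around HJURP, -0.19 around SPDL1, -0.16 around GTSE1 and -0.11 around CCNF. HJURP fell from 128 ± 5.81 CPM in controls to 56.97 ± 2.44 CPM with overexpression (SD, n = 3 each).

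Among all genes tested 29.3% fell and 28.3% rose, and the complexes of this companion list are read beside those shares. Of 16 APC/C genes 3 fell and 4 rose, and of 11 cohesin genes 2 fell and 3 rose, counts near or below the shares over all genes. Of 27 genes of the inner centromere and outer kinetochore 13 fell and 4 rose. Of 22 spindle pole and augmin genes with a row, 12 fell and 2 rose, and of 7 genes of the checkpoint arm 4 fell and 1 rose. Of 3 condensin II genes 2 fell and 0 rose, and of 13 CDK1 inhibitors, partners and phosphatase genes 5 fell and 3 rose. The MuvB, E2F and pocket protein genes had 2 lower and 6 higher of 16, with a median log2 fold change of 0.18. RBL1 and RBL2, pocket proteins of the repressor form of that complex, were among the lower (-0.59 and -0.63), and the E2F factors E2F2 and E2F7 among the higher (0.90 and 0.63); these 4 were chosen after their values were seen, as the genes of that group past both thresholds. With library size in place of TMM all values moved up by about 0.06.

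DNA replication genes act earlier in the cycle, in S phase. Of 50 genes, 7 fell (14%), 23 rose (46%) and 20 did not pass, beside 29.3% lower and 28.3% higher over all genes, with a median log2 fold change of 0.12, against -0.69 in the mitotic list and 0.00 over all genes. RRM2 and TYMS, which supply deoxynucleotides, were the 2 lower past both thresholds (log2 fold changes ± standard error -0.70 ± 0.04 and -0.58 ± 0.05). TYMS (-0.582) lay so close to the fold threshold of 0.58 that the shift of about 0.06 with library size in place of TMM exceeds its margin. The 3 higher were MCM10, an initiation factor (0.97 ± 0.08), and the cyclins CCNE1 and CCNE2, which open S phase (0.79 ± 0.15 and 0.63 ± 0.08). The neighbours' median was -0.49 around RRM2, -0.19 around TYMS, 0.70 around MCM10, 0.28 around CCNE1 and 0.05 around CCNE2. Lists of genes are not replicates, and the difference between the lists was not tested.

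**Figure D4:**
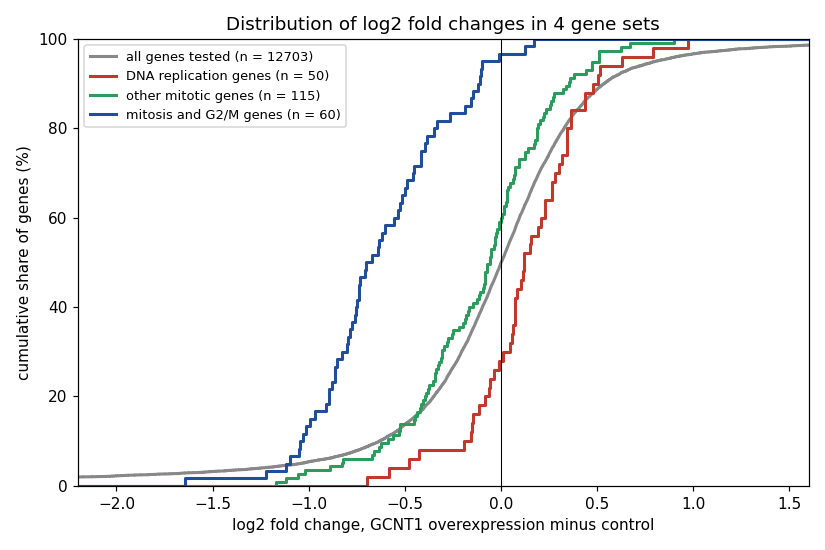
Cumulative share of genes (y axis, %) by log2 fold change (x axis, GCNT1 overexpression minus control) for the 60 mitosis and G2/M genes, 115 other mitotic genes, 50 DNA replication genes and all 12703 genes. The curve of the 60 members lies to the left of the others over most of the range, and that of the replication genes lies to the right of it, crossing 50% near 0.12.

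Transcript length moved with the differences between libraries of the same group. In control replicate 3 and overexpressing replicate 1 the members with longer transcripts were lower than the group mean (Pearson correlation of the deviation with log2 transcript length -0.69 and -0.69 over 60 genes), and in the other 4 libraries the correlation was between 0.32 and 0.59. Each group thus held 1 library of this kind. With both left out, a setting added after the values were known, 54 members fell and 37 were past both thresholds, KIF11 and NCAPG being added to the 35. In the 20 members with the shortest transcripts (2658 bases or less) the median log2 fold change was -0.79, and in the 20 with the longest (4388 bases or more) it was -0.52. The part of transcript length in the difference between the groups was not tested beyond this.

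Counts can also mix with those of overlapping genes, since the sources used here do not say whether reads were counted by strand. Of the 60 members, 22 overlap, by their GENCODE 44 span, an annotated coding or lncRNA gene on the opposite strand and 7 overlap one on the same strand. Of the 35 members with no such overlap 21 passed both thresholds, and they include CCNB1, CDC25B, CENPE, AURKA, BUB1, CDC20, TPX2, TOP2A and MKI67.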

How the data were processed

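RNA from 3 Lenti-ORF control and 3 GCNT1 overexpressing PC3 lines was sequenced by the authors as stranded mRNA single reads, trimmed with Cutadapt, mapped to hg38 with HISAT2 and counted with featureCounts. Deposited by the authors were unnormalized read counts for each library, without pooling, on Entrez identifiers. The annotation, the strand setting and any filter on low counts are not given in the sources used here. Each of the 6 columns was used, and libraries of a group differed by more than sampling noise (chi-square per degree of freedom 1.65 to 5.61). With 11392213 to 13825704 counts per library, the floor of 3 counts stood at 0.217 to 0.263 CPM and covers counting error only.

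Counts were tested in edgeR 4.0.16 (R 4.3.3) with the quasi-likelihood test, filterByExpr (which kept all 12703 genes) and TMM factors, in 2 groups with no covariate. Benjamini-Hochberg adjustment ran over all genes, and the thresholds (adjusted p 0.05, log2 fold change 0.58 in size) are those of the study. The fit was tested on simulated data with 98 genes changed 1.5-fold and 100 changed 2-fold, of which 83.7% and 95% were recovered. Far more genes passed in the real data, so the simulation does not test the scaling there. The level per kilobase used the exon union of GENCODE 44, and neighbours were the 25 genes on each side by start position. Copies were found with minimap2 2.31, at 90% identity over 50% of the canonical transcript. Promoters came from RefSeq windows of GRCh38.p14.

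The members and all gene lists were chosen with earlier results of these data known. Given with every library's value are the members past both thresholds, the 5 highest and the 5 lowest, and CCNB1, CDK1, PLK1, AURKA, AURKB, BUB1B, TOP2A, MKI67, FOXM1 and MYBL2. Other members are given by role with their log2 fold changes or range. Genes of the companion lists are named only past both thresholds, at most 5 per list by p, apart from 4 in the MuvB and E2F group. GCNT1, marker genes (some not reported here) and genes that overlap or copy a member are also named. Alternatives were limma-voom with robust fitting (limma 3.58.1, the study's test), DESeq2 1.42.0, glmTreat (a test against a log2 fold change of 0.58), RLE factors, library size alone, no filter, 10 counts in every library, a replicate block, each library left out, and differences relative to the neighbours or to all genes.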

Additional observations from a re-analysis of the deposited data

How the results depend on the processing

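The fall of the members was kept in all settings tried. When 1 library was left out, 51 to 53 members were lower at the adjusted p and 33 to 37 past both thresholds. The median log2 fold change was then -0.71 to -0.66. The test against a log2 fold change of 0.58 (glmTreat) called 25 members in place of 35 (CEP55 had the highest adjusted p of the 10 lost, 0.762), and library size alone left 32, without CEP55, KIF14 and MKI67. KIF14 and MKI67 were also lost without control replicate 1 and without GCNT1 overexpression replicate 1. The count of members that rose, 1 in the main comparison (FOXM1), was 0 with the replicate block and 0 to 1 with a library left out. Of 731 values for the 43 members given with every library's value, 708 kept their direction and their side of the adjusted p, 17 lost the adjusted p, 1 gained it (AURKB) and 5 turned direction. This tally leaves the fold threshold aside, and the values relative to neighbours or to all genes reuse the adjusted p of the main comparison, so they could change only in direction. Outside these 43, SMC2 gained a call without control replicate 3 and without GCNT1 overexpression replicate 2, SMC4 without control replicate 3, and both with control replicate 3 and GCNT1 overexpression replicate 1 left out together. CCNA2 lost its call in 4 fits with a library left out, with DESeq2, with glmTreat, with library size alone and with the block. All 17 members that fell by less than the fold threshold lost the call with glmTreat, which tests against that threshold. FOXM1 turned to -0.0408 and PLK4 to -0.0868 relative to their neighbours. MAD2L1 turned to 0.0497 with library size alone, and with a library left out it ran from -0.0410 to 0.0336, above 0 without control replicate 1 and without GCNT1 overexpression replicate 2. The cause of these changes was not tested, apart from the fixed subtraction of the neighbours' median.

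The replicate numbers of the labels did not pair the libraries. Same-numbered libraries had correlations of -0.27, -0.00 and -0.11 between their deviations from the group means. With the replicate block 51 members were lower, 0 higher and 35 past both thresholds, with a median of -0.69, and CCNA2 (adjusted p = 0.0911) and FOXM1 (adjusted p = 0.0577) lost their calls.

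Depth did not limit the members, which had at least 179 counts in each library. GCNT1 had 8 to 35 counts.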
